A study of Saccharomyces cerevisiae with 36 samples.

Results

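The 10 genes described here encode the Snf1 protein kinase, its partners and the end of the pathway it controls in budding yeast, and they were followed through 36 RNA-seq libraries. They were chosen by name: *SNF1*, *SNF4*, *SIP1*, *SIP2*, *GAL83*, *REG1*, *MIG1*, *MIG2*, *MIG3* and *SUC2*, 10 of the 5697 genes counted. A search of all names found 1 further gene, *BCY1* (YIL033C), which carries REG1 as a synonym but encodes the regulatory subunit of protein kinase A, and it was not counted as a member. All 10 genes passed the filter on low counts.

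The wild-type was FY4, a prototrophic laboratory strain, and the *gal80Δ* mutant was derived from it. Gal80 keeps the activator Gal4 silent in the absence of galactose, so the mutant has lost that brake. Each strain grew in minimal medium with 0.1% fructose, or with 0.1% fructose and 0.9% palatinose, a disaccharide of glucose and fructose, and was harvested at mid-log and again after 10 further hours (+10h) and after 16 (+16h). The 12 groups of strain, medium and time had 3 biological replicates each, A, B and C. The series gives +10h as the time when fructose runs out. All cells had been precultured on pyruvate, no group lacked fructose at the start and none contained galactose, and each genotype is a single strain. The cultures were pure, and a level in such a culture does not tell a change in all cells from a larger change in some of them.

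Snf1 is the yeast AMP-activated protein kinase. It works as a trimer of the catalytic subunit Snf1, the activating subunit Snf4 and any of the β subunits Gal83, Sip1 and Sip2, which place the kinase in different parts of the cell. When glucose or fructose is plentiful, the Glc7 phosphatase, directed by Reg1, keeps Snf1 inactive, and the zinc-finger repressors Mig1, Mig2 and Mig3 keep genes for other carbon sources silent. When sugar runs low, active Snf1 phosphorylates Mig1, which leaves the nucleus. *SUC2* encodes invertase, which splits sucrose and raffinose outside the cell, and it is the classic gene repressed by Mig1 and Mig2. *MIG2* and *MIG3* are themselves repressed by Rgt1 when sugar is absent. All of this regulation of the kinase and of Mig1 acts on the proteins, and the libraries measured transcripts.

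The DNA before *SUC2*, *MIG2* and *MIG3* is printed because *SUC2* is the target of the pathway and *MIG2* and *MIG3* are the repressors of the family that changed in several comparisons, and it shows where the letters that Mig1, Rgt1 and Gal4 recognise lie. The stretches come from the R64 reference, the build of the count table, and run 5′ to 3′ on the strand of the gene. Capitals mark matches, on either strand, to a motif of Mig1, of Rgt1 or of Gal4. The Mig1 motif was searched as CCGGGG and also as CTGGGG, then as GCGGGG and finally as GTGGGG. The Rgt1 motif is CGGANNA, and that of Gal4 is CGGNNNNNNNNNNNCCG. The stretch of *SUC2* (120 bases, chrIX:36876-36995, plus strand) begins 509 bases before the start codon, that of *MIG2* (186 bases, chrVII:95473-95658, plus strand) 385 bases before it and that of *MIG3* (204 bases, chrV:212098-212301, minus strand) 425 bases before it.
SUC2: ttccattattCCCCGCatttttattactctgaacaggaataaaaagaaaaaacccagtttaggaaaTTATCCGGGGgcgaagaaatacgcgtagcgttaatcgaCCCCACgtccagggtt
MIG2: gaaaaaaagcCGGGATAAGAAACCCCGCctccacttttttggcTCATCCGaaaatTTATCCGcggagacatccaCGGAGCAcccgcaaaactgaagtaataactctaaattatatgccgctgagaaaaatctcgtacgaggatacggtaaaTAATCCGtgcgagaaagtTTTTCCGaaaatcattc
MIG3: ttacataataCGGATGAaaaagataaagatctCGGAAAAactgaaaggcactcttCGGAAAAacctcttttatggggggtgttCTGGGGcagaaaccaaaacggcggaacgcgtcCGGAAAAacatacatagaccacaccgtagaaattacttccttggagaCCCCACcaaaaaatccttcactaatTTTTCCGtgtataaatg

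In the 600 bases before the start codon, *SUC2* held 3 Mig1 matches, at 499, 439 and 405 bases, and 1 Rgt1 match that overlaps the middle one. Of 5999 promoters of this length, 27.8% held at least 1 Mig1 match and 0.967% at least 3. *MIG2* and *MIG3* held 5 Rgt1 matches each, a number that 0.233% of promoters reached or passed, against 48.0% with at least 1. *MIG2* also held 1 Mig1 match, which overlaps its only Gal4 match (found in 3.50% of promoters), and *MIG3* held 2 Mig1 matches. *MIG1* held 4 Mig1 matches, a number that 0.200% of promoters reached or passed, and 1 Rgt1 match. Of the genes of the kinase, *GAL83* held 1 Rgt1 match and *REG1* 1 Gal4 match. AGGGG, the stress response element, occurred in 39.7% of promoters, once before *SIP2*, *GAL83* and *MIG3* and at 2 places before *SNF1*, *REG1* and *MIG2*. A match is a run of letters and not a measured binding site.

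Reads were counted over the whole transcript, but the libraries were primed at the poly(A) tail, so that reads fall near the 3′ end and a longer gene does not give more of them. A comparison of levels between genes still depends on how well each counted interval holds the 3′ end of the transcript, which was not tested. Total counts ran from 6020770 to 11785148 in a library (median 8282840.5), so that 3 counts correspond to 0.255 to 0.498 CPM. This floor reflects the error of counting and nothing else. Levels are given as normalised CPM, counts scaled to the library's total as CPM, with that total corrected by edgeR's TMM factor, and every fold change is on the same scale. A gene was taken as changed when its absolute log2 fold change was above 0.5 and its adjusted p-value from edgeR's quasi-likelihood test below 0.05, over 5479 genes tested. *GAL80* transcripts were at 46.4 to 97.9 normalised CPM in wild-type libraries (n = 18) and at 7.23 to 16.2 in *gal80Δ* libraries (n = 18). For *GAL1*, a Gal4 target, the ranges were 21.8 to 87.9 and 7008 to 18770, so that both genes separated the strains as labelled.

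The members differed widely in level. Over the 12 libraries at mid-log, *SNF4* had a median of 316 normalised CPM, *REG1* 132, *SNF1* 66.9, *GAL83* 60.8, *SUC2* 53.3, *SIP1* 41.2, *MIG2* 22.6 and *SIP2* 15.6. *MIG1*, at 1.63, and *MIG3*, at 1.42, were the lowest. Their counts lay between 3 and 40 in a library for *MIG1* and between 5 and 82 for *MIG3*, so that their changes are less precise than those of the others. The counted interval of *MIG1* (YGL035C, chromosome VII, 431423 to 433087, minus strand) ends at the default 125 bp after the stop codon, and reads from ends farther out would not be counted. Whether this lowers its level was not tested.

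**Figure D1:**
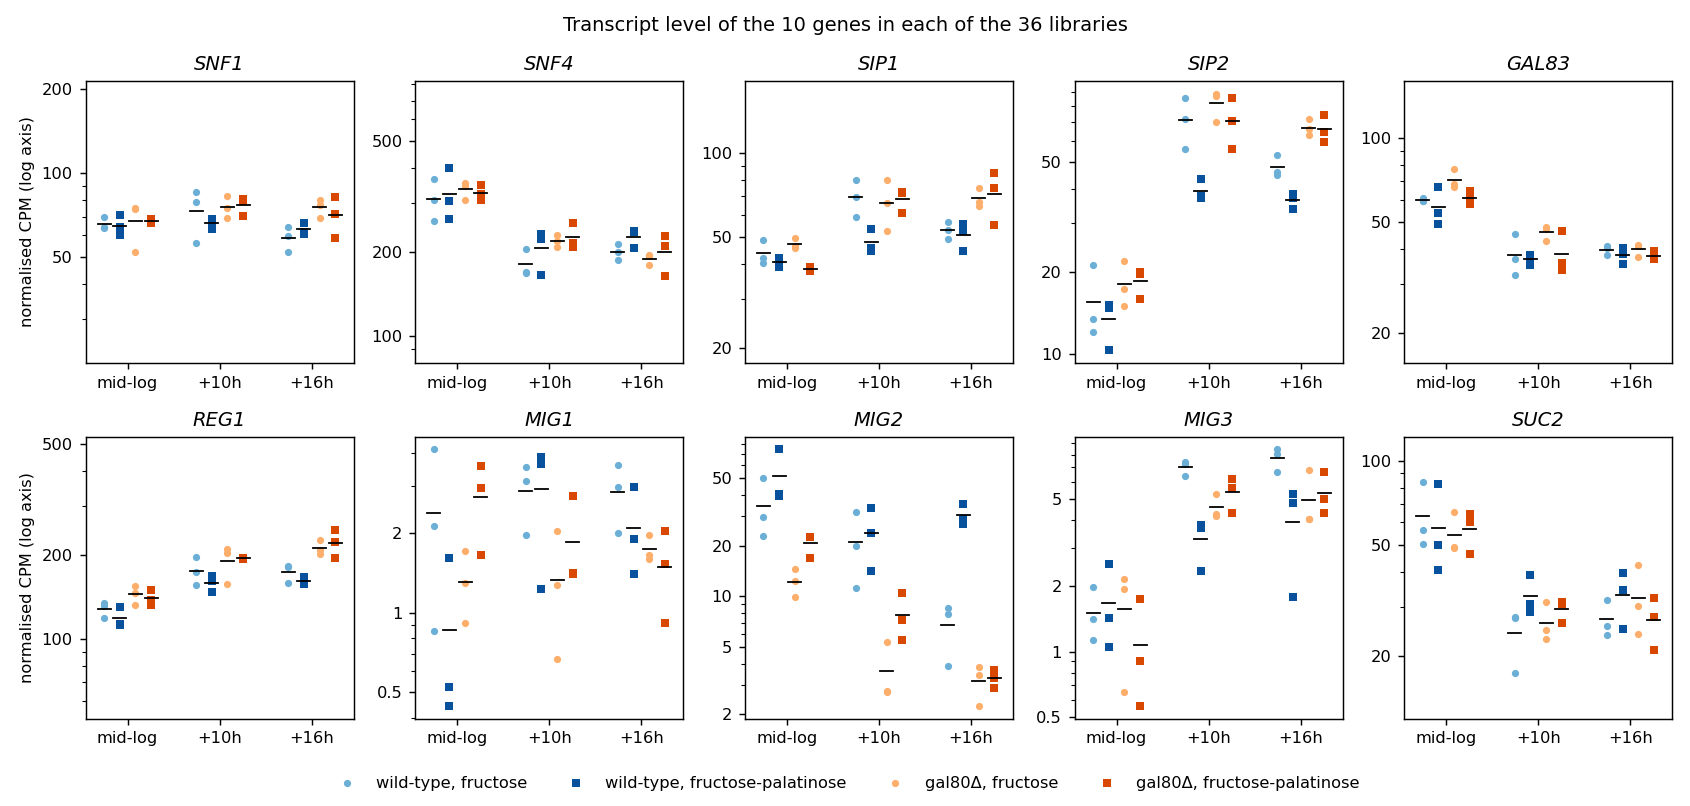
Normalised CPM (log axis) of each of the 10 genes in every library, by time, with 4 colours for strain and medium, each point a library and each bar the mean of 3. *SIP2* and *MIG3* stood higher after mid-log and *SNF4*, *GAL83* and *SUC2* lower, while *MIG2* was lower in every *gal80Δ* group than in the matched wild-type group.

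From mid-log to +10h, while the OD rose from between 0.26 and 0.35 to between 1.45 and 1.8, the parts of the kinase changed in different directions. The *SIP2* transcript rose 2.92-fold to 4.57-fold in the 4 cultures, *SNF4* and *GAL83* fell in each, *SUC2* fell in each, and *SNF1* did not pass in any on this scale. Of the 10 genes, 6 changed in wild-type cells in fructose (55.2% of all genes tested), 6 in fructose-palatinose (45.7%), 6 in *gal80Δ* cells given fructose (52.7%) and 7 in those given fructose-palatinose (50.6%). Shares of 6 or 7 in 10 lie near those of the whole transcriptome, so the number of members that changed is no result about them. The directions and sizes are what follows.

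**Figure D2:**
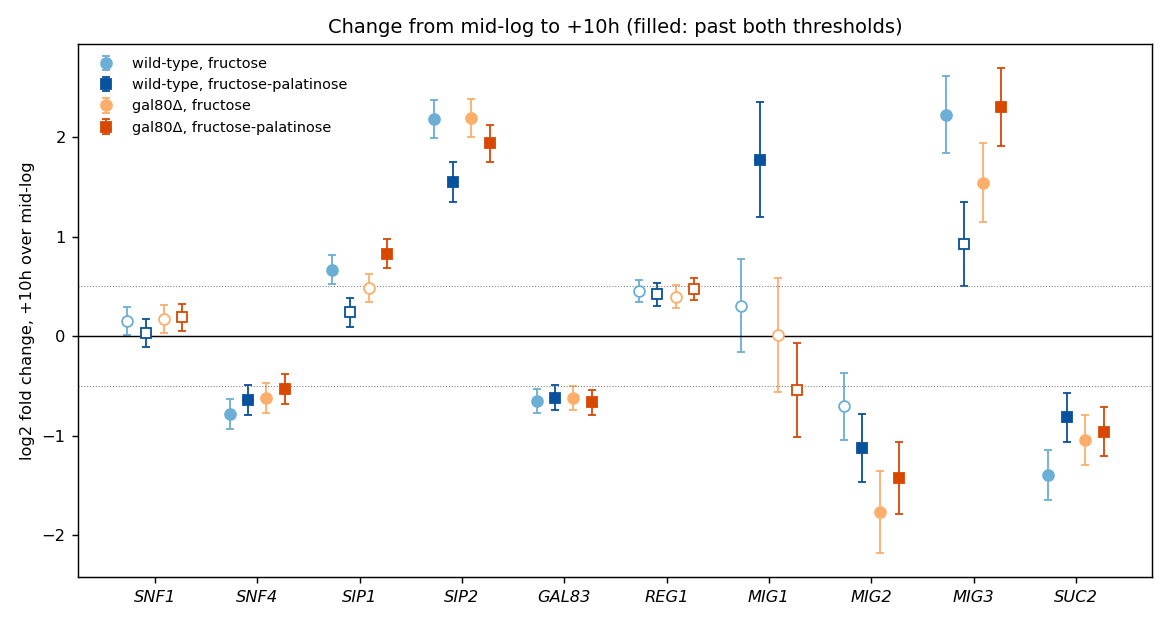
Log2 fold change from mid-log to +10h of each gene in the 4 cultures, with its standard error, filled where it passed both thresholds and with dotted lines at 0.5 and -0.5. *SIP2*, *SNF4*, *GAL83* and *SUC2* passed in the same direction in all 4 cultures.

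*SNF1* (YDR477W, chromosome IV, 1412079 to 1414422, plus strand), the catalytic subunit, was the steadiest member. Its level lay between 52.5 and 85.5 normalised CPM over all 36 libraries (median 68.8), and its log2 fold changes from mid-log to +10h were 0.16, 0.03, 0.17 and 0.19 in wild-type in fructose, wild-type in fructose-palatinose, *gal80Δ* in fructose and *gal80Δ* in fructose-palatinose (standard errors 0.14). A neighbour on the opposite strand, YDR476C, overlaps its counted interval by 95 bp. It passed in none of the 20 comparisons of time, medium or strain.

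*SNF4* (YGL115W, chromosome VII, 291885 to 293114, plus strand), which encodes the activating γ subunit, was the most abundant member and fell. It stood at 259 to 401 normalised CPM in the 12 libraries at mid-log (median 316) and at 166 to 254 in the 12 at +10h (median 213), so that the time points did not overlap. The log2 fold changes were -0.78 and -0.64 in wild-type cells in fructose and fructose-palatinose (edgeR adjusted p = 5.1e-05 and 6.9e-04) and -0.62 and -0.53 in the *gal80Δ* strain (edgeR adjusted p = 7.8e-04 and 0.00351). Without replicate A the last of these was -0.44 and did not reach the minimum. At +16h the range was 165 to 239, and no change from +10h passed.

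The 3 β subunits exchanged places. *SIP2* (YGL208W, chromosome VII, 97288 to 98741, plus strand) was the lowest of them at mid-log. In wild-type cells in fructose it rose from 12.1, 13.4 and 21.2 normalised CPM in replicates A, B and C to 71.7, 85.7 and 56.2, and in fructose-palatinose from 15.2, 10.4 and 14.8 to 43.3, 37.1 and 37.9. In the *gal80Δ* strain it rose from 14.95, 17.3 and 21.9 to 87.6, 88.9 and 70.2 in fructose and from 19.6, 19.9 and 16.0 to 70.6, 85.7 and 56.1 in fructose-palatinose. Every library at +10h was above every library at mid-log. The log2 fold changes, in the same order of cultures, were 2.18, 1.55, 2.19 and 1.94 (standard errors 0.19 to 0.20), with edgeR adjusted p-values between 5.7e-11 and 1.4e-07.

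*GAL83* (YER027C, chromosome V, 208683 to 210308, minus strand), whose product takes the kinase to the nucleus when glucose is limiting, was the highest β subunit at mid-log and fell. Its 12 libraries at mid-log lay between 49.0 and 77.5 normalised CPM (median 60.8) and the 12 at +10h between 32.2 and 48.1 (median 37.7). The log2 fold changes of -0.65, -0.62, -0.62 and -0.67 were nearly equal in the 4 cultures (standard errors 0.12, edgeR adjusted p between 3.1e-05 and 1.1e-04). Without the libraries of replicate C, that of wild-type cells in fructose-palatinose was -0.49 and did not reach the minimum.

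*SIP1* (YDR422C, chromosome IV, 1315036 to 1317883, minus strand), the β subunit found at the vacuole, rose in 2 cultures. Its log2 fold change was 0.67 in wild-type cells in fructose (edgeR adjusted p = 2.0e-04) and 0.83 in *gal80Δ* cells in fructose-palatinose (edgeR adjusted p = 1.4e-05). It was 0.24 in wild-type cells in fructose-palatinose (edgeR adjusted p = 0.169) and 0.48 in *gal80Δ* cells in fructose (edgeR adjusted p = 0.00466), below the minimum. The *SIP1* transcript averaged 43.7 ± 4.49 normalised CPM at mid-log and 69.5 ± 10.3 at +10h in wild-type cells in fructose (SD, n = 3).

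As shares of the summed β-subunit counts of a library, which no scaling between libraries changes, *GAL83* made up 46.1% to 54.7% at mid-log (median 52.0%, 12 libraries) and 20.3% to 31.8% at +10h (median 22.5%). *SIP2* went from between 10.0% and 17.3% (median 13.7%) to between 29.5% and 48.0% (median 39.3%). *SIP1* kept between 31.4% and 40.1% at mid-log (median 34.6%) and between 28.7% and 44.1% at +10h (median 37.1%). The most abundant β-subunit transcript at mid-log was thus *GAL83* in all 12 libraries, and at +10h it was *SIP1* or *SIP2*. The shares at +16h lay close to those at +10h, with medians of 25.7% for *GAL83*, 39.3% for *SIP1* and 36.3% for *SIP2*. They are given as a description, with no test.

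**Figure D3:**
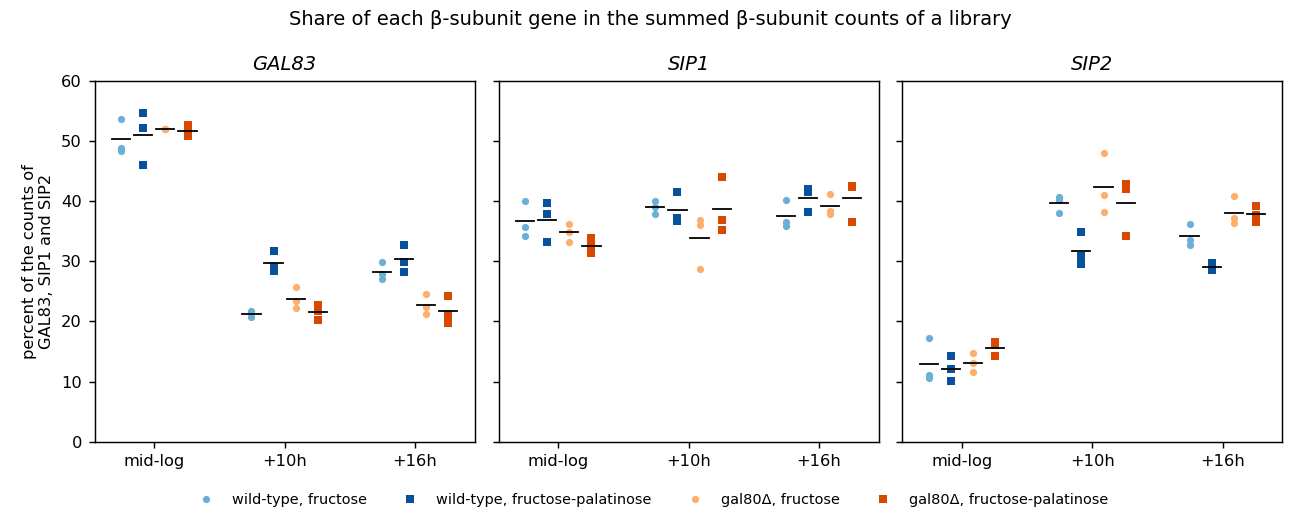
Percent of the summed counts of *GAL83*, *SIP1* and *SIP2* that each gene took in a library, by time, with 4 colours for strain and medium, each point a library and each bar the mean of 3. *GAL83* fell from a median of 52.0% at mid-log to 22.5% at +10h, and *SIP2* rose from 13.7% to 39.3%.

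*SIP2* lies next to *MIG2*, and *GAL83* next to *MIG3*, in the same order and on the same strand. The counted intervals of *SIP2* and *MIG2* overlap by 4 bp and those of *GAL83* and *MIG3* by 71 bp. In each pair the overlap lies at the 3′ end of the interval of the *MIG* gene, near which its reads fall. Whether this lowered the level of *MIG2* or *MIG3* was not tested. From mid-log to +10h the neighbours of each pair moved apart. *SIP2* rose where *MIG2* fell or did not pass, and *GAL83* fell where *MIG3* rose or did not pass. From +10h to +16h *SIP2* and *MIG2* both fell in wild-type cells in fructose (log2 fold changes -0.57 and -1.64).

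*REG1* (YDR028C, chromosome IV, 497557 to 501331, minus strand), the regulatory subunit that directs the Glc7 phosphatase to Snf1, stood between 112 and 156 normalised CPM at mid-log (median 132) and between 148 and 210 at +10h (median 183). Its log2 fold changes were 0.45, 0.42, 0.40 and 0.47, with edgeR adjusted p-values between 7.0e-04 and 0.00339, but all were below the minimum of 0.5. These changes of the regulators depend on the scale. When libraries were scaled by size alone, the median over all genes of the log2 fold change from mid-log to +10h moved from between 0.02 and 0.06 to between 0.28 and 0.38. On that scale *SNF1* passed in wild-type cells in fructose (0.53, edgeR adjusted p = 0.0120), *REG1* was at 0.82, 0.68, 0.67 and 0.76 and passed in all 4 cultures, and *SNF4* (-0.41 to -0.24) and *GAL83* (-0.38 to -0.28) passed in none. *SIP1* in *gal80Δ* cells in fructose (0.77, edgeR adjusted p = 3.3e-04) and *MIG3* in wild-type cells in fructose-palatinose (1.17, edgeR adjusted p = 0.0238) passed on that scale and not with TMM. *SUC2*, *SIP2* and *MIG2* kept their calls on both scales.

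*SUC2* (YIL162W, chromosome IX, 37346 to 39203, plus strand) fell in all 4 cultures as the ODs rose. In wild-type cells in fructose its level went from 83.5, 50.1 and 56.5 normalised CPM in replicates A, B and C at mid-log to 27.2, 17.4 and 27.6 at +10h. In fructose-palatinose it went from 82.4, 49.8 and 40.4 to 38.8, 30.7 and 28.7. In both media every library at +10h was below every library at mid-log, although the spread at mid-log was wide. In the *gal80Δ* strain it went from 48.9, 48.8 and 65.2 to 31.2, 24.7 and 22.9 in fructose and from 46.3, 64.6 and 60.3 to 30.6, 31.2 and 26.2 in fructose-palatinose, again without overlap.

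The log2 fold changes of *SUC2* were -1.40 and -0.82 in wild-type cells in fructose and fructose-palatinose (standard errors 0.25, edgeR adjusted p = 1.8e-05 and 0.00668) and -1.05 and -0.96 in the *gal80Δ* strain (standard errors 0.25, edgeR adjusted p = 6.5e-04 and 0.00142). They corresponded to a fall of between 1.76-fold and 2.63-fold. With each replicate letter left out in turn they stayed between -1.59 and -0.60 and passed each time. At +16h the 12 libraries lay between 20.9 and 42.4 normalised CPM (median 28.7), and the 4 changes from +10h lay between -0.13 and 0.30 and did not pass. Relative to *SNF1* in the same library, *SUC2* counts averaged between 0.844 and 0.952 over the 4 groups at mid-log and between 0.346 and 0.494 at +10h, a ratio that no scaling changes.

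Neither medium nor strain moved *SUC2* past the thresholds. The 6 log2 differences between fructose-palatinose and fructose lay between -0.27 and 0.44, and their 95% intervals together spanned -0.76 to 0.93. The highest was that of wild-type cells at +10h (edgeR adjusted p = 0.231), where every library with palatinose was above every library without it. The 6 between *gal80Δ* and wild-type lay between -0.30 and 0.25, with intervals spanning -0.79 to 0.75. Differences of less than about this size were not resolved.

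Over the 12 group means, *SUC2* had a pattern opposite in sign to those of *MIG3* (Pearson's r of log2 CPM = -0.959) and *SIP2* (-0.953) and like that of *SNF4* (0.944). The genes closest to it among all tested were *GUS1* (r = 0.990), *MSS116* (0.984) and *CCT3* (0.984). These values describe 12 means that share their libraries, and most of their spread comes from the step between mid-log and later.

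*MIG2* (YGL209W, chromosome VII, 95806 to 97291, plus strand), which encodes a repressor that acts with Mig1 on *SUC2*, changed more with strain and medium than any other member whose counts allowed a firm value. In wild-type cells in fructose it stood at 29.6, 22.6 and 50.03 normalised CPM at mid-log, between 11.2 and 31.7 at +10h (mean 20.95, SD 10.3, n = 3) and at 8.57, 7.81 and 3.89 at +16h. In fructose-palatinose it stood at 39.6, 40.2 and 74.2, at 33.3, 23.8 and 14.2, and at 35.1, 26.98 and 28.7. At +16h every wild-type library with palatinose was thus above every library without it, whereas at the earlier times the media overlapped.

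In the *gal80Δ* strain, *MIG2* stood at 14.4, 12.4 and 9.86 normalised CPM at mid-log in fructose, at 2.71, 2.77 and 5.36 at +10h and at 2.25, 3.80 and 3.42 at +16h. In fructose-palatinose it stood at 22.5, 22.4 and 16.9, at 10.4, 5.51 and 7.23, and at 3.29, 3.67 and 2.85. In each of the 6 combinations of medium and time, all 3 *gal80Δ* libraries were below all 3 wild-type libraries. *SIP2* and *REG1* were separated, in either direction, in 4 of the 6 and *SUC2* in 0. The share of all genes so separated was not counted, so the separation is a description and no result particular to *MIG2*.

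From mid-log to +10h *MIG2* fell in 3 cultures, with log2 fold changes of -1.12 in wild-type cells in fructose-palatinose (edgeR adjusted p = 0.00640) and of -1.76 and -1.42 in the *gal80Δ* strain in fructose and fructose-palatinose (edgeR adjusted p = 4.8e-04 and 0.00136). In the wild-type in fructose it was -0.71 (edgeR adjusted p = 0.0714). Replicate letters weighed on the wild-type values. Without replicate C the fall in fructose-palatinose was -0.49 (edgeR adjusted p = 0.155), and without replicate B that in fructose was -1.36 (edgeR adjusted p = 0.0133).

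*MIG3* (YER028C, chromosome V, 210238 to 211944, minus strand), the third repressor of the family, rose from a low level. In wild-type cells in fructose it went from 1.98, 1.13 and 1.42 normalised CPM at mid-log to 6.41, 7.38 and 7.26 at +10h, and in fructose-palatinose from 1.05, 1.43 and 2.52 to 3.79, 2.33 and 3.68. In the *gal80Δ* strain it went from 0.650, 1.93 and 2.14 to 4.20, 5.30 and 4.29 in fructose and from 1.74, 0.905 and 0.564 to 6.22, 4.30 and 5.62 in fructose-palatinose. The time points overlapped only in wild-type cells in fructose-palatinose. The log2 fold changes were 2.23, 0.93, 1.54 and 2.30 in this order of cultures (standard errors 0.39 to 0.42), and the second did not pass (edgeR adjusted p = 1.2e-05, 0.0626, 0.00128 and 1.1e-05). *MIG2* and *MIG3* moved in opposite directions in both *gal80Δ* cultures. Each has 5 Rgt1 matches before its start codon, and whether Rgt1 had a part in either change was not tested.

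*MIG1*, the best known of the repressors, was counted 3 to 40 times in a library and passed in a single comparison. In wild-type cells in fructose-palatinose it went from 0.523, 1.61 and 0.444 normalised CPM to 3.65, 3.88 and 1.23, a log2 fold change of 1.77 (standard error 0.58, edgeR adjusted p = 0.0106). The groups overlapped, and without replicate A the value was 1.37 (edgeR adjusted p = 0.114). The standard errors of its log2 changes were between 0.45 and 0.61 over the comparisons of time, medium and strain, and the other 3 changes from mid-log to +10h were 0.31, 0.01 and -0.54. At mid-log in fructose-palatinose it stood at 1.65, 2.94 and 3.57 in the *gal80Δ* strain, above all 3 wild-type libraries, a log2 difference of 1.68 that missed the threshold with edgeR (adjusted p = 0.0585) and passed with DESeq2 (adjusted p = 0.0388).

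From +10h to +16h, 2 members changed, both in 1 culture. In wild-type fructose cultures *MIG2* fell by 1.64 on the log2 scale (standard error 0.37, edgeR adjusted p = 0.00259) and *SIP2* by 0.57 (standard error 0.18, edgeR adjusted p = 0.0343), 2 of 10 against 11.1% of all genes. Without replicate B the fall of *MIG2* was -1.33 (edgeR adjusted p = 0.147) and that of *SIP2* -0.38 (edgeR adjusted p = 0.420), and without replicate A that of *SIP2* was -0.51 (edgeR adjusted p = 0.257). In a fit of the compared groups alone neither passed (edgeR adjusted p = 0.0706 and 0.123). No member passed in wild-type cells in fructose-palatinose, where 1.59% of all genes did, or in *gal80Δ* cells in fructose (9.27%) or fructose-palatinose (8.60%). At an unadjusted p below 0.05, edgeR counted 0 of 10 members in each of the first pair and 1 in the last. In those *gal80Δ* cells in fructose-palatinose *MIG2* was at -1.22 (edgeR adjusted p = 0.0580), a value that passed with DESeq2 (adjusted p = 0.0208), which called no other member in these 3 cultures.

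Palatinose was compared at equal fructose. It changed no member at mid-log in the wild-type, where 0.128% of all genes passed (1 of 10 members at an unadjusted p below 0.05 with edgeR, none called by DESeq2), and 3 at +10h (11.6% of all genes). At +10h *SIP2*, *SIP1* and *MIG3* were lower with palatinose, with log2 differences of -0.85, -0.54 and -1.11 (edgeR adjusted p = 0.00177, 0.0110 and 0.0258). These are 3 of the genes that rise after mid-log. Libraries with and without palatinose did not overlap for 4 of the 10 members, these 3 (lower with palatinose) and *SUC2* (higher, not called). The share of all genes so separated was not counted. The cultures differed in density, with ODs of 1.65 to 1.8 with palatinose and 1.5 to 1.55 without (exact two-sided permutation p = 0.1, the smallest possible with 3 against 3), and the part of density in the result was not tested.

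None of these calls held with every replicate letter left out in turn. Without replicate B the differences were -0.66 for *SIP2* (edgeR adjusted p = 0.161), -0.38 for *SIP1* (edgeR adjusted p = 0.318) and -0.87 for *MIG3* (edgeR adjusted p = 0.437). Without replicate A that of *SIP1* was -0.51 (edgeR adjusted p = 0.0725), and without replicate C that of *MIG3* was -1.20 (edgeR adjusted p = 0.0841). In a fit of the compared groups alone none of the 3 passed (edgeR adjusted p between 0.0509 and 0.101). The directions stayed the same.

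At +16h *MIG2* was higher with palatinose in the wild-type, 30.3 ± 4.25 against 6.76 ± 2.51 normalised CPM (SD, n = 3), a log2 difference of 2.17 (standard error 0.37, edgeR adjusted p = 1.9e-04). It was the only member to pass there, against 6.19% of all genes. The call held in every fit that left out a replicate letter. The ODs were 2.6 to 2.8 with palatinose and 1.85 to 2.1 without (exact two-sided permutation p = 0.1, the smallest possible). *MIG3* stood the other way, at -0.95 (edgeR adjusted p = 0.0752), and passed with DESeq2 (-0.97, adjusted p = 0.0440).

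In the *gal80Δ* strain palatinose changed no member at mid-log (0.128% of all genes), +10h (0.146%) or +16h (0.128%). For *MIG2* the log2 differences were 0.75, 1.09 and 0.04, and the first pair of times had groups that did not overlap. The edgeR adjusted p-values of all members were 1 at the 3 times. At an unadjusted p below 0.05, edgeR counted 3, 2 and 0 of 10 members, and DESeq2 called none. The palatinose effect on *MIG2* at +16h was lower in the *gal80Δ* strain than in the wild-type by a log2 difference of -2.13 (standard error 0.59), which missed the threshold with edgeR (adjusted p = 0.0632) and passed with DESeq2 (adjusted p = 0.0103) and with edgeR in a fit of the compared groups alone (adjusted p = 0.00939).

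**Figure D4:**
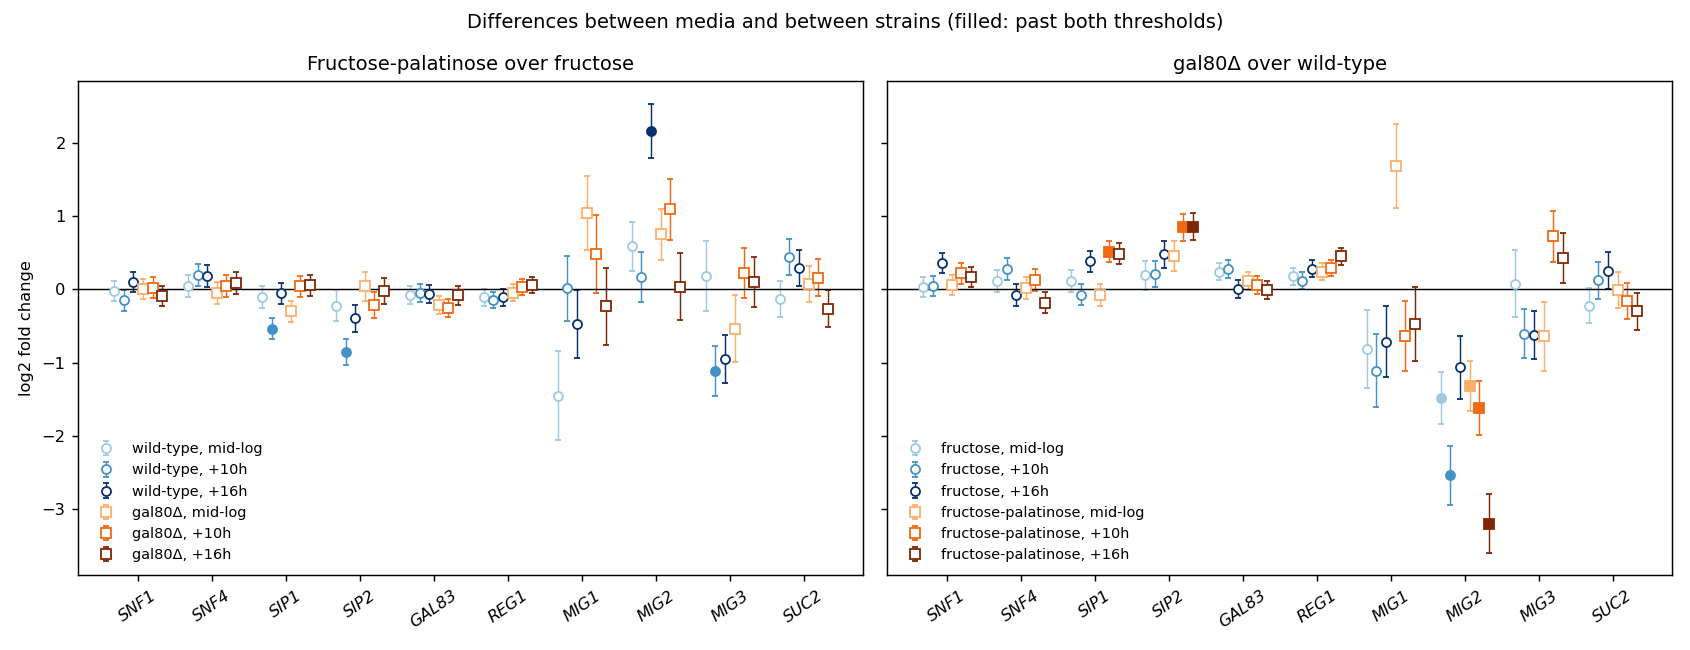
Log2 fold change of each gene with palatinose over fructose alone (left) and in *gal80Δ* over wild-type (right), with its standard error, for the 6 comparisons of each kind, filled where it passed both thresholds. *MIG2* lies below 0 in all 6 strain comparisons, from -3.20 to -1.07, and at 2.17 with palatinose in the wild-type at +16h.

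Between the strains, *MIG2* was the member that differed most. Its transcript was 2.79-fold lower in the *gal80Δ* strain at mid-log and 5.82-fold lower at +10h in fructose, and 2.50-fold, 3.08-fold and 9.18-fold lower at mid-log, +10h and +16h in fructose-palatinose. In log2 the differences were -1.48 (edgeR adjusted p = 0.00858) and -2.54 (edgeR adjusted p = 7.2e-05) in fructose and -1.32 (edgeR adjusted p = 0.0113), -1.62 (edgeR adjusted p = 0.00216) and -3.20 (edgeR adjusted p = 7.6e-07) in fructose-palatinose. At +16h in fructose it was -1.07 and did not pass (edgeR adjusted p = 0.137), although no library overlapped.

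*MIG2* was the only member called at mid-log in fructose (7.15% of all genes), at +10h in fructose (7.50%) and at mid-log in fructose-palatinose (7.99%). No member was called at +16h in fructose (5.97%), by edgeR or DESeq2, and 5 of 10 had an unadjusted p below 0.05 with edgeR. In fructose-palatinose *SIP2* was higher in the *gal80Δ* strain at +10h, by a log2 difference of 0.85 (edgeR adjusted p = 0.00144), and at +16h, by 0.86 (edgeR adjusted p = 0.00132), and *SIP1* at +10h, by 0.51 (edgeR adjusted p = 0.0124), which with DESeq2 was 0.496 and below the minimum. With *MIG2* this made 3 members of 10 at +10h (14.3% of all genes) and 2 at +16h (12.8%).

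Leaving out a letter cost several of these calls. With replicate A, B or C left out, the log2 differences at mid-log were between -1.71 and -0.96 in fructose and between -1.53 and -0.83 in fructose-palatinose, and none passed (edgeR adjusted p between 0.0560 and 0.0825). A fit of the compared groups alone gave -1.50 at mid-log in fructose (edgeR adjusted p = 0.0671). At +10h in fructose, *MIG2* without replicate B was at -1.94 (edgeR adjusted p = 0.0549). At +10h in fructose-palatinose it was at -1.57 without replicate A (edgeR adjusted p = 0.0578) and -1.42 without B (edgeR adjusted p = 0.0823). Of the 5 differences, that at +16h in fructose-palatinose passed each time (-3.37 to -3.08). The difference at +16h in fructose, which did not pass with all libraries, was -1.40 without replicate C (edgeR adjusted p = 0.0294). Without replicate B the values of *SIP2* in fructose-palatinose were 0.64 at +10h (edgeR adjusted p = 0.114) and 0.71 at +16h (edgeR adjusted p = 0.0687). That of *SIP1* was 0.42 without B (edgeR adjusted p = 0.160) and 0.55 without C (edgeR adjusted p = 0.0962). Of the 8 strain calls of members, 5 were kept without replicate A, 1 without B and 5 without C. Without A *SIP1* (0.72) and *REG1* (0.54) at +16h in fructose-palatinose were gained (edgeR adjusted p = 0.0126 and 0.0278).

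The 11 tests of whether a change or difference itself differed between strains or media gave 1 call among the members. The step of *MIG2* from +10h to +16h in the wild-type was higher in fructose-palatinose (0.36) than in fructose (-1.64) by a log2 difference of 2.00 (standard error 0.50, edgeR adjusted p = 0.0374), in a test that 1.41% of all genes passed. It lost the call without replicate A (2.44, edgeR adjusted p = 0.206), B (1.76, edgeR adjusted p = 0.384) or C (1.79, edgeR adjusted p = 0.0622), in a fit of the compared groups alone (edgeR adjusted p = 0.177), and with the culture (strain, medium and replicate letter) as a block (1.97, edgeR adjusted p = 0.0904). No member passed in the other 10 tests with edgeR. The strains were compared in their palatinose effects at mid-log (0% of all genes passed), +10h (0.803%) and +16h (1.53%). The media were compared in the step from mid-log to +10h in the wild-type (3.10%) and the *gal80Δ* strain (0.0183%) and in the step from +10h to +16h in the latter (0%). The strains were compared in the first step (0.621%) and the second (0.657%) in fructose and in the first (2.61%) and the second (0.219%) in fructose-palatinose. It was thus not shown that the fall of *SUC2* or the rise of *SIP2* differed between cultures. At an unadjusted p below 0.05, edgeR counted 17 of 110 member values over the 11 tests, and DESeq2 called 2.

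Other genes of the pathway are described by lists drawn up from general knowledge, with earlier results of these data known. Those upstream of Snf1 moved in both directions. Of 7 regulators (*SAK1*, *TOS3*, *ELM1*, *GLC7*, *REG2*, *SIP5* and *HXK2*), 3 rose and 1 fell from mid-log to +10h in each of the 4 cultures, a share near the 45.7% to 55.2% of all genes called at this step. *REG2*, a relative of *REG1* that also directs Glc7 to Snf1, averaged 15.5 normalised CPM at mid-log and 171 at +10h in wild-type cells in fructose, a log2 fold change of 3.45 (standard error 0.19, edgeR adjusted p = 1.2e-15). With palatinose it reached 61.2, and its log2 fold change was 1.86. *TOS3*, 1 of the 3 kinases that activate Snf1, rose by 1.72 and *HXK2*, the hexokinase of fast growth on glucose, fell by 2.67 on the log2 scale (edgeR adjusted p = 8.0e-10 and 4.4e-12). The median of the list was 0.12 beside 0.02 for all genes.

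Of 7 corepressors and other repressors (*CYC8*, *TUP1*, *NRG1*, *NRG2*, *RGT1*, *MTH1* and *STD1*), 3 rose and 3 fell in wild-type cells in fructose, 2 and 2 in fructose-palatinose, 3 and 3 in *gal80Δ* cells in fructose and 3 and 2 in fructose-palatinose. These 4 to 6 calls of 7 stand beside the same 45.7% to 55.2% of all genes. *NRG1*, a repressor that Snf1 inhibits, and *RGT1*, the repressor of *MIG2*, *MIG3* and hexose transporter genes, rose in wild-type cells in fructose by 3.11 and 0.87 on the log2 scale (edgeR adjusted p = 5.8e-08 and 8.4e-04). *TUP1*, the corepressor that Mig1 recruits, fell by 0.84 (edgeR adjusted p = 1.9e-04), from a mean of 18.1 to 10.1 normalised CPM, and *STD1*, a regulator of Rgt1, fell by 1.05 (edgeR adjusted p = 2.1e-05). The median of this list was -0.16.

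Of 6 genes listed as activators that depend on Snf1 (*CAT8*, *SIP4*, *ADR1*, *RDS2*, *HAP4* and *GSM1*), 5 rose and none fell in each of the 4 cultures. That dependence was not tested for any of them. At this step 45.7% to 55.2% of all genes were called in either direction, and 1342 to 1596 of the 5479 tested rose. The medians of the list were 1.68, 1.56, 1.54 and 1.40 beside 0.02 to 0.06 for all genes. *SIP4*, an activator of gluconeogenic genes, averaged 0.527 normalised CPM at mid-log, near the floor, and 79.4 at +10h in wild-type cells in fructose. *GSM1* rose there by 2.31 on the log2 scale (edgeR adjusted p = 7.4e-13).

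Of 15 glucose-repressed genes for enzymes and transporters, 14 were tested and *FDH1* was not. In the 4 cultures 11, 12, 11 and 11 of them rose and 2 fell in each, at a step at which 45.7% to 55.2% of all genes were called. The medians of the list were between 4.04 and 4.60 on the log2 scale, beside 0.02 to 0.06 for all genes. *PCK1*, which encodes the enzyme that commits cells to gluconeogenesis, and *MLS1*, the malate synthase of the glyoxylate cycle, rose from means of 9.19 and 7.89 normalised CPM to 2031 and 1632 in wild-type cells in fructose, while *HXT2*, a hexose transporter, fell from 952 to 55.6 and *HXK1*, a hexokinase, from 28.9 to 10.2. *SUC2*, itself glucose-repressed, thus fell at a step at which most of this list rose, and it shared its direction with *HXT2* and *HXK1*.

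Between the strains, 1 of the 14 glucose-repressed genes was higher and 3 lower in *gal80Δ* cells at mid-log in each medium (7.15% and 7.99% of all genes called). In fructose 3 were higher and 3 lower at +10h (7.50%), and 0 and 4 at +16h (5.97%). In fructose-palatinose 7 were higher and 2 lower at +10h (14.3%). In fructose-palatinose at +16h, 9 were higher and 4 lower, beside 12.8% of all genes called, and *SUC2* differed by -0.30 (edgeR adjusted p = 0.457). Of the 6 activators 3 were higher there, of the 7 regulators *REG2* was higher (0.61, edgeR adjusted p = 0.0130) and *HXK2* lower (-1.93, edgeR adjusted p = 2.9e-08), and of the 7 repressors *MTH1* was higher (0.66, edgeR adjusted p = 3.2e-05) and *STD1* lower (-0.79, edgeR adjusted p = 0.00678). *HXK1* stood at 3.10 against 14.6 normalised CPM, a log2 difference of -2.22 (edgeR adjusted p = 6.8e-05). Several of these genes thus shared the direction of *MIG2* and others that of *SIP2*. The ODs at that point were 1.9 to 2.1 in the mutant and 2.6 to 2.8 in the wild-type (exact two-sided permutation p = 0.1, the smallest possible), and their part in these differences was not tested.

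Across the 12 group means of log2 CPM, the genes with patterns most like that of *MIG2* were *OAC1* (r = 0.959), *CTO1* (0.950) and YNL162W-A (0.945). Those most like *MIG3* were YGR201C (0.987), *THI21* (0.985) and *ACA1* (0.982), and those most like *MIG1*, whose counts are low, were *GIP3* (0.781), *LTO1* (0.718) and *VPS33* (0.713). Among the members, *SIP2* and *REG1* (0.930) and *SIP1* and *SIP2* (0.925) had the most alike patterns after those of *SNF4* with *SUC2* and with *GAL83* (0.933). These correlations are descriptions over 12 means.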

How the data were processed

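The 36 libraries were made from total RNA with a kit that primes at the poly(A) tail and sequences from the 3′ end. Per the labels, the authors' processing used FastQC 0.11.9, cutadapt 1.18, HISAT2 2.1.0, SAMtools 1.11, bedtools 2.30.0, MultiQC 1.13 and featureCounts of Subread 2.0.0, and the genome was R64. The deposited values analysed here are whole-number read counts for 5697 genes, not normalised, over transcript intervals that end 125 bp after the stop codon where no measured end was known. The optical densities at harvest are the authors' values as deposited in a separate table. A deposited table also held 1 value column, CPM, that was not used. Total counts per library ran from 6020770 to 11785148.

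The members and the gene lists were chosen with earlier results of these data known. Counts were fitted with the quasi-likelihood test of edgeR 4.0.16 (R 4.3.3) in a single model of the 12 groups, with TMM scaling, after filterByExpr, which kept 5479 genes. P-values were adjusted by Benjamini-Hochberg over all genes tested in each comparison. A call needed an adjusted p-value below 0.05 and a log2 fold change of more than 0.5 in either direction, the thresholds of the study's methods. The study used DESeq2 and asked for both at all 3 time points, whereas here each comparison was called by itself. The comparisons were 4 steps from mid-log to +10h, 4 from +10h to +16h, 6 between media, 6 between strains and 11 between such changes. They share groups, so they are not independent. Fold changes of list genes were named by rule, the largest that passed in each direction, at most 2 a direction, from mid-log to +10h in wild-type cells in fructose, and other genes named between the strains were chosen after their values were seen. For *SUC2* and the 3 *MIG* genes, the 3 genes with the highest Pearson correlation over group means were named. The fitting code was tested on simulated counts with known changes.

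The series calls A, B and C biological replicates without saying more, so the p-values measure the spread between these samples. Whether a culture was sampled at all 3 times is not given in the sources used here, and no batch is labelled. No pair of replicates of a group agreed within sampling noise (36 pairs, lowest chi-square per degree of freedom 9.87). The same replicate letter was tested as a pair. The correlation of same-letter deviations ranged from -0.574 to 0.634 over 20 comparisons and was above 0.1 for every letter in 3 of them, from mid-log to +10h in wild-type cells in fructose-palatinose (0.299, 0.109 and 0.353), between media in the wild-type at mid-log (0.479, 0.103 and 0.625) and between strains in fructose-palatinose at +10h (0.162, 0.116 and 0.137). The alternatives were another scaling (library size), other filters and fold minima, a replicate block, each replicate left out, a fit of the compared groups alone and DESeq2 1.42.0. A culture block was added after seeing the data. Sequences and motif counts came from RefSeq's R64 reference.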

Additional observations from a re-analysis of the deposited data

Results flagged for a closer look

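The step of *MIG2* from +10h to +16h in wild-type cells differed between the media. It was 0.36 in fructose-palatinose and -1.64 in fructose, and the difference of 2.00 on the log2 scale (standard error 0.50) passed the test of the difference itself (edgeR adjusted p = 0.0374, 1.41% of all genes passed). Without replicate A, B or C it was 2.44, 1.76 and 1.79 and did not pass. The ODs at +16h were 2.6 to 2.8 with palatinose and 1.85 to 2.1 without, and their part in the difference was not tested.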

How the results depend on the processing

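Over 31 comparisons of 10 genes, no called value changed sign. With a minimum log2 fold change of 1, the calls fell from 25 to 13 from mid-log to +10h, from 2 to 1 from +10h to +16h, from 4 to 2 with palatinose and from 8 to 5 between strains. Fitting the compared groups alone gave 1 call from +10h to +16h, neither of the earlier 2 but *MIG2* in *gal80Δ* cells in fructose-palatinose (-1.22, edgeR adjusted p = 0.0232), and 1 with palatinose, that of *MIG2* at +16h in the wild-type. DESeq2 gave 2 calls among the differences between changes, and the culture block, chosen after seeing the data, gave 0, against 1. Leaving out a replicate letter gave 25 to 26 calls from mid-log to +10h, 0 to 3 from +10h to +16h, 1 to 3 with palatinose, 1 to 7 between strains and 0 to 1 among the differences. These are net counts. From mid-log to +10h, 2 calls were lost and 3 gained without A, 0 and 1 without B, and 2 and 2 without C. The 1 among the differences was another call, the first step of *MIG2* in fructose between the strains, without C (-2.27, edgeR adjusted p = 0.0252). With library size alone, 8 calls were lost and 10 gained, and the strain calls rose to 11. With the replicate letter as a block, which the check of pairing did not support in most comparisons, the strain calls were 9, and *MIG1* at mid-log in fructose-palatinose was added (1.74, edgeR adjusted p = 0.0393). The block changed no other call of a member. Low counts limit *MIG1* and *MIG3*.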
